A study of Mus musculus with 6 samples.

Results

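The regulators of AU-rich mRNA decay described here are 9 genes: Zfp36, Zfp36l1, Zfp36l2, Zc3h12a, Khsrp, Hnrnpd, Elavl1, Tia1 and Tial1. They were picked by gene symbol from the RefSeq table of the series, and for a gene with several entries the entry with the highest mean over the 8 value columns was used. The 9 genes have 14 of the 27794 entries, and the whole table holds 21837 genes. RNA was sequenced from primary mouse embryonic fibroblasts (MEFs), which are connective tissue cells grown from embryos, either untreated or exposed to the inflammatory cytokine TNFα at 20 ng/ml for 1.5, 6 or 24 hr. The cells of all 4 libraries were wildtype, of the strain C57BL/6x 129, taken from littermate embryos of 13.5 days and passaged 4 times. There was 1 RNA library per time. The methods say of the experiments in general that more than one independently derived line was used, and how many embryos or lines stood behind each library was not given in the sources used here. A protocol field of the 24 hr sample describes ChIP whereas its title and treatment are those of an RNA sample, so each 24 hr value rests on taking it as RNA. Histone H3 trimethylated at lysine 4 (H3K4me3), a mark of active promoters, was profiled in untreated MEFs of the same kind with 1 ChIP-seq library, and 1 input library was its control. With 1 library per time no difference between times could be tested, so no p-value is given.

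Many mRNAs for cytokines, chemokines, growth factors and immediate early proteins carry AU-rich elements in the 3′UTR, short A and U sequences that make an mRNA unstable. Zfp36 (also called tristetraprolin) and its relatives Zfp36l1 and Zfp36l2 are zinc finger proteins that bind these elements and bring in the deadenylase complex, which shortens the poly(A) tail before the body of the mRNA is degraded. Zc3h12a (Regnase-1) is an endonuclease that cuts stem-loops in the 3′UTRs of inflammatory mRNAs. Khsrp (KSRP) and most forms of Hnrnpd (AUF1) are linked to faster decay, whereas Elavl1 (HuR) binds the same kind of element and is known for stabilizing the mRNA. Tia1 and Tial1 (TIAR) hold back translation of AU-rich mRNAs and gather in stress granules. TNFα signals through NF-κB and through the kinases p38 and MK2, and MK2 phosphorylates Zfp36, which then binds 14-3-3 proteins.

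Several of these regulators carry AU-rich elements in their own mRNAs. The heptamer TATTTAT, read on the strand of the mRNA, was present in the annotated 3′UTR of 6 of the 9 genes, against 24.4% of the 18542 genes with an annotated 3′UTR. The nonamer, which is the heptamer with a further T on each side and is close to the preferred site of the Zfp36 family, was present in 4 of 9, against 6.48%. Those 4 were Zfp36, Zfp36l1, Zfp36l2 and Elavl1, and each of them had 3 or more heptamers, as did 3.11% of the 18542 genes. The 30-base windows below are sites of these genes and of Tia1 and Tial1. They are in build mm9 and 5′ to 3′ on the strand of the mRNA, with the heptamer in capitals. They are shown because elements of this kind are what the Zfp36 family and Elavl1 proteins bind. All 3 sites of Zfp36 are given, with the nonamer in the second.
Zfp36 site 1, chr7:29161984-29162013, minus strand: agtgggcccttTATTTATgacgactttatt
Zfp36 site 2, chr7:29161969-29161998, minus strand: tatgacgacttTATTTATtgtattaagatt
Zfp36 site 3, chr7:29161944-29161973, minus strand: agattttatagTATTTATatatattgggtc
Zfp36l1 nonamer, chr12:81209153-81209182, minus strand: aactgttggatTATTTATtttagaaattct
Zfp36l2 nonamer, chr17:84584253-84584282, minus strand: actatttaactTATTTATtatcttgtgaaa
Elavl1 first repeat, chr8:4285787-4285816, minus strand: gtcatgaaaatTATTTATttatttatttat
Elavl1 second repeat, chr8:4285749-4285778, minus strand: atttgtttgttTATTTATttatttattact
Tia1 heptamer, chr6:86380461-86380490, plus strand: cagatacaatgTATTTATttaaaagattca
Tial1 heptamer, chr7:135585936-135585965, minus strand: gaaaatgaaaaTATTTATtttaaaaattga

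Zfp36 had its 3 heptamers in a 3′UTR of 774 bases. Among the 1950 genes whose 3′UTR was within 1.2 times that length, 1.08% had at least as many. For Zfp36l1, with 3 heptamers in 1829 bases, this share was 4.09%, and for Zfp36l2, with 3 in 1822 bases, it was likewise 4.09%. Elavl1 had 8 heptamers in 4818 bases, counted with overlap, and all 8 were nonamers too. They lay close together, and the one that starts at base 3817 of the 3′UTR is not whole in either window above. Of genes with a 3′UTR of like length, 0.442% had as many. Zc3h12a, Khsrp and Hnrnpd had no heptamer, in 3′UTRs of 856, 1635 and 2938 bases. The shorter pentamer ATTTA, which lies inside the heptamer, was in all 9 genes and in 62.1% of genes with an annotated 3′UTR. Matching letters are a description of the sequence, and binding was not measured.

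The libraries differed in ways that touched every gene, and each value below stands beside those differences. The deposited RPKM values, which are reads per length of transcript, have a scale of their own, so levels are given in deposited units and as percentiles among the 21837 genes. A floor of 100 on the average of the 4 libraries left 6251 genes, and over these the median log2 ratio to untreated was 0.43, -0.74 and 0.09 at 1.5, 6 and 24 hr. The summed values of the 6 hr library were 0.563 times those of the untreated library. The reads estimated for 7884 genes with 1 annotated transcript numbered about 1990000 at 6 hr against 3660000 to 5080000 in the others. These estimates cover part of the genes and are not the depths of the libraries. The mapped sequences per sample that the paper reports are far more and span a relatively narrower range. The ratios also moved with the GC content of the transcript: from the lowest to the highest of 20 GC bins, the median log2 ratio went from 1.42 to -0.76 at 1.5 hr, from -0.08 to -0.89 at 6 hr and from 1.01 to -0.98 at 24 hr. The ratios of the 9 regulators are therefore given as deposited, relative to the median gene and relative to genes of the same GC bin, those of other genes as deposited unless stated, and the part of depth or GC content in any ratio was not tested. Fibroblast markers were present as labelled, with 8 of 9 past the floor and summed levels of 45000 to 99331. Of 7 leukocyte markers, Cd68 and Csf1r passed the floor, Cd3e was at 0 throughout, and the summed level was 980 in untreated MEFs, 1279 at 1.5 hr, 335 at 6 hr and 532 at 24 hr. None of 4 endothelial and 6 epithelial markers passed it, with summed levels of at most 5.04 and 50.8 and with Epcam at 0.

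All 9 regulators were detected in each library. The table holds a pair of columns per library, R1 and R2, whose origin was not stated. For genes with 5 to 100 estimated reads they differed by 0.171 to 0.272 of the variance that independent counting would give, so they were not used as replicates, and levels are their mean. Of the 9 genes, 6 passed the floor, and Elavl1 (average 93.1), Tia1 (66.3) and Hnrnpd (64.3) lay under it. Zc3h12a, with an average of 113, was the nearest above it. A 95% counting interval is given for a log2 ratio, from about the number of reads behind it, and it covers counting error only. In RNA from whole cultures, a change in the number of cells that express a gene and a change in the RNA of each cell cannot be told apart.

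**Figure D1:**
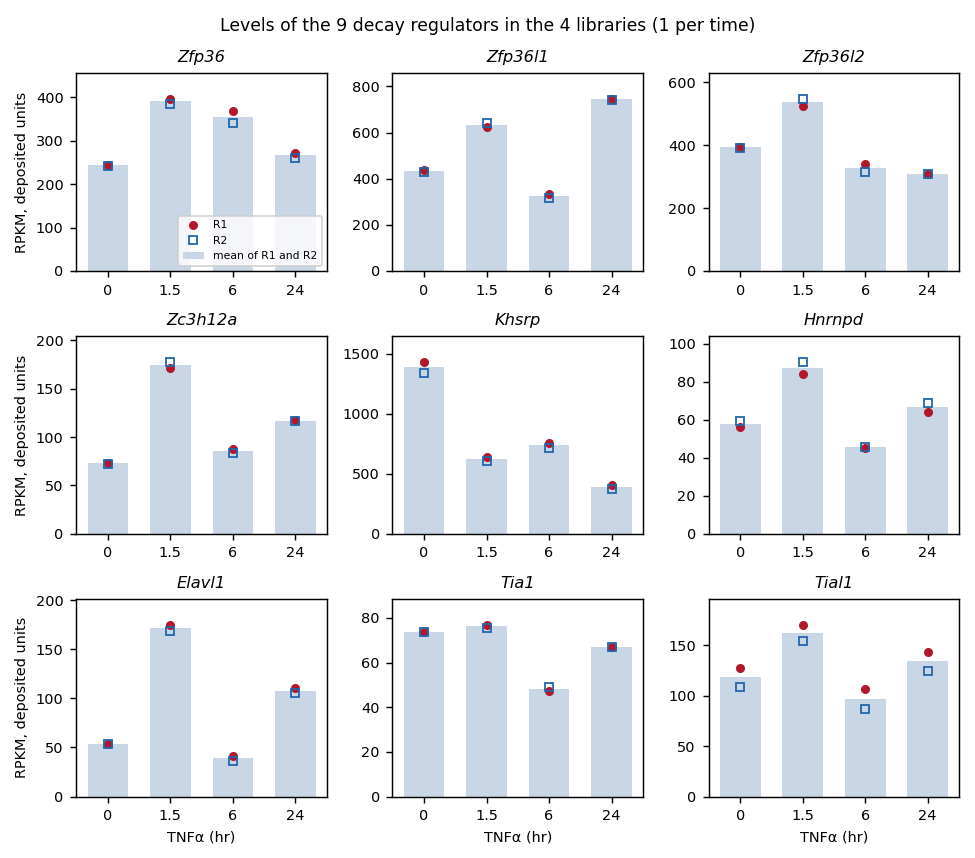
Level of each regulator (RPKM in deposited units, vertical axes from 0 and different for each gene) in the untreated library and after 1.5, 6 and 24 hr of TNFα, with bars for the mean of the R1 and R2 columns and points for each column. Khsrp is highest in the untreated library at 1385, Elavl1 and Zc3h12a are highest at 1.5 hr, and Zfp36l1 is highest at 24 hr at 744.

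Zfp36 (NM_011756; mm9 chr7:29161803-29164274, minus strand) had a level of 243 in untreated MEFs, 390 at 1.5 hr, 354 at 6 hr and 266 at 24 hr. It was higher in all 3 treated libraries than in the untreated one, most at 1.5 hr, where it was 1.61-fold higher (log2 0.68, counting interval 0.52 to 0.85). At 6 hr it was 1.46-fold higher (log2 0.54, interval 0.37 to 0.72). At 24 hr the log2 ratio was 0.13, with an interval of -0.05 to 0.31 that included 0. Against the median gene, which was lower in the 6 hr library, its log2 ratios were 0.25, 1.28 and 0.04 at 1.5, 6 and 24 hr. The 6 hr ratio lay at percentile 95.9 of the 6251 genes, and its level moved from percentile 84.4 of all genes in untreated MEFs to 92.7 at 6 hr. Relative to genes of its GC bin (its transcript has 54.0% GC) the log2 ratios were 0.34, 1.43 and 0.18. Zfp36 thus passed 2-fold at no time as deposited and at 6 hr relative to the median gene. About 458 to 767 reads stood behind each level.

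The relatives of Zfp36 followed other courses. Zfp36l1 (NM_007564; chr12:81208747-81214000, minus strand) had levels of 432, 633, 327 and 744 at 0, 1.5, 6 and 24 hr, and was highest at 24 hr, 1.72-fold above untreated (log2 0.78, interval 0.67 to 0.90). Its log2 ratios at 1.5 and 6 hr were 0.55 and -0.40, but relative to the median gene all 3 ratios were above 0, at 0.12, 0.33 and 0.69. Relative to its GC bin the 24 hr value was 0.19 and the 1.5 hr value -0.39. A noncoding gene on the opposite strand, Gm17591, overlaps Zfp36l1. The libraries kept strand, but whether strand was used in counting is not given in the sources used here, so reads of both genes cannot be told apart.

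Zfp36l2 (NM_001001806; chr17:84583271-84587287, minus strand) had levels of 394, 536, 328 and 309. It was higher than untreated at 1.5 hr (log2 0.45, interval 0.28 to 0.62) and lower at 6 hr (-0.26) and 24 hr (-0.35, interval -0.54 to -0.16). Set against the median gene the values were 0.02, 0.47 and -0.45, so the sign at 6 hr turned with the scaling, and relative to its GC bin they were 0.42, 0.66 and -0.04. It was the member of the family with the lowest 24 hr level relative to untreated. Neither relative passed 2-fold at any time, as deposited or relative to the median gene.

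Zc3h12a (NM_153159; chr4:124795667-124805084, minus strand) had a level of 73.0 in untreated MEFs, 175 at 1.5 hr, 85.7 at 6 hr and 117 at 24 hr. All 3 treated libraries were above the untreated one, and the 1.5 hr library was 2.39-fold above it (log2 1.26, interval 1.03 to 1.49). The log2 ratios at 6 and 24 hr were 0.23, with a counting interval of -0.04 to 0.50, and 0.68. With the median gene as reference the ratios were 0.83, 0.97 and 0.58, all above 0 and none past 2-fold. This GC-rich transcript (57.1%) stood further from genes of its own GC content, with log2 ratios of 1.41, 1.11 and 1.13, each past 2-fold. About 212, 527, 218 and 399 reads stood behind the 4 levels.

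Khsrp (NM_010613; chr17:57160481-57170930, minus strand) had levels of 1385, 622, 735 and 389. The untreated library was the highest and the 24 hr library the lowest, and every treated library was under the untreated one. Its log2 ratio was -1.16 at 1.5 hr (interval -1.28 to -1.03), -0.91 at 6 hr (-1.04 to -0.79) and -1.83 at 24 hr (-1.97 to -1.69), where its level was 0.281 times the untreated one. Relative to the median gene the values were -1.59, -0.18 and -1.92, at percentiles 6.18, 37.2 and 2.77 of the 6251 genes. Khsrp has 57.5% GC, and genes of its GC bin were lower too, with medians of -0.26, -0.87 and -0.49. Relative to them it was at -0.89, -0.04 and -1.34, so that it passed 2-fold at 24 hr under all 3 references, at 1.5 hr under the first and the second, and at 6 hr under none.

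Hnrnpd (chr5:100387445-100407957, minus strand) is listed with 4 transcript entries, which share most of their sequence and so most of their reads. Its highest entry, NM_001077265, had levels of 57.8, 87.3, 45.6 and 66.7. The log2 ratios were 0.60 at 1.5 hr (interval 0.22 to 0.97), -0.34 at 6 hr (-0.80 to 0.11) and 0.21 at 24 hr (-0.18 to 0.59), and the intervals at 6 and 24 hr included 0. Across the 4 entries the 1.5 hr ratio ran from 0.57 to 0.62. They were 0.16, 0.39 and 0.11 relative to the median gene, whereas relative to genes of the same GC content (43.4%) they were -0.72, -0.15 and -0.65. The direction of Hnrnpd thus turned with the reference at every time. Gm17092 overlaps it on the opposite strand, with the same limit as for Zfp36l1.

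Elavl1 (NM_010485; chr8:4284782-4325100, minus strand), the stabilizing member, had levels of 53.5, 172, 39.1 and 108. The 1.5 and 24 hr libraries were both above the untreated one and the 6 hr library was below it. Its 3.21-fold higher level at 1.5 hr (log2 1.68, interval 1.51 to 1.86) was the largest ratio of the 9 genes at that time as deposited, and at 24 hr it was 2.01-fold higher (log2 1.01, interval 0.83 to 1.19). At 6 hr the log2 ratio was -0.45 (interval -0.70 to -0.21), and relative to the median gene the values were 1.25, 0.28 and 0.92. The transcript has 43.5% GC, and genes of its GC bin had medians of 1.32, -0.19 and 0.86, so that relative to them Elavl1 was at 0.37, -0.26 and 0.15. Its average lay under the floor, although about 217 to 1137 reads stood behind each level of its long transcript.

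Tia1 (chr6:86354213-86383397, plus strand) is listed with 3 entries, of which NM_001164078 had levels of 73.6, 76.4, 48.1 and 67.1. Its log2 ratios of 0.05, -0.61 and -0.13 had wide counting intervals, and only the one at 6 hr, from -1.20 to -0.03, left out 0. Against the median gene they were -0.38, 0.12 and -0.23, with the sign turned at 1.5 and 6 hr. Relative to genes of the same GC content (41.2%) Tia1 was at -1.36, -0.53 and -1.14. Its relative Tial1 (NM_009383; chr7:135583291-135605231, minus strand) had levels of 118, 162, 96.9 and 134, with log2 ratios of 0.46 (interval 0.18 to 0.73), -0.29 and 0.18. The R1 and R2 columns differed most for this gene, with 127 and 109 in untreated MEFs. Tial1 was at 0.03, 0.45 and 0.09 relative to the median gene, and relative to its GC bin (41.3% GC) at -0.96, -0.21 and -0.83. Both genes were lower than genes of like GC content at all 3 times.

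**Figure D2:**
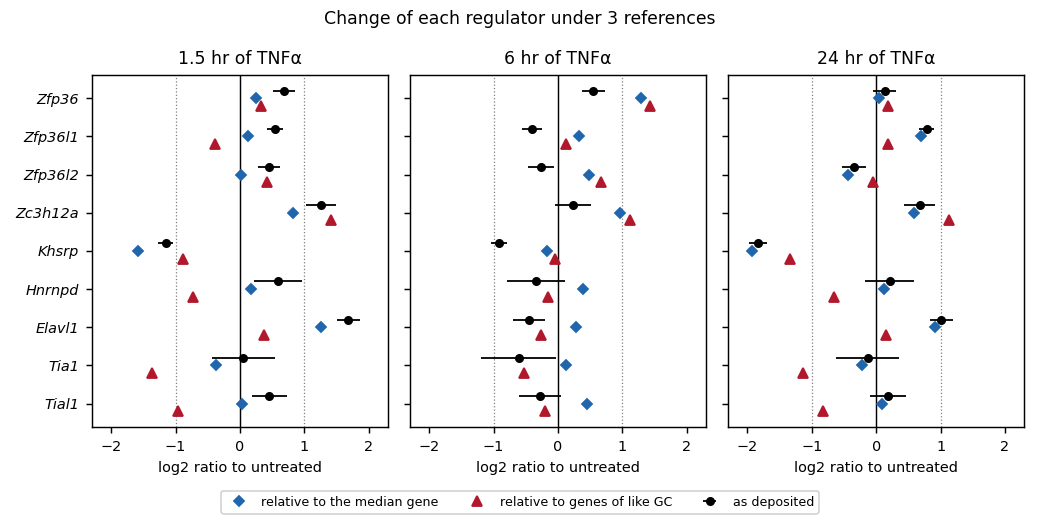
Log2 ratio to untreated MEFs of each regulator (horizontal axis) at 1.5, 6 and 24 hr of TNFα, as deposited (black, bars are 95% counting intervals), relative to the median gene past the floor (blue) and relative to the median of its GC bin (red); dotted lines mark 2-fold. Khsrp is left of 0 in all 3 panels, at -1.83 at 24 hr as deposited, Zc3h12a is right of 0 under all 3 references, and Hnrnpd, Tia1 and Tial1 change side at 1.5 or 24 hr with the reference.

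Among the 6 members past the floor, 1 (Zc3h12a) was at least 2-fold higher at 1.5 hr, where 29.8% of the 6251 genes were, and 1 (Khsrp) was at least 2-fold lower, where 8.51% were. Zc3h12a was under the floor in untreated MEFs (73.0) and at 6 hr (85.7). Its average passed only through the 1.5 hr (175) and 24 hr (117) libraries, so the floor itself favoured counting this gene as higher. At 6 hr none of the 6 was at least 2-fold higher or lower, against 1.87% and 31.4% of genes. At 24 hr none was higher, against 17% of genes, and 1 (Khsrp) was lower, against 13.4%. Without the floor, Elavl1 joined the higher genes at 1.5 and 24 hr. Relative to the median gene the counts of the 6 changed: none was higher and Khsrp was lower at 1.5 hr (background 16.3% and 17.6%), Zfp36 was higher and none lower at 6 hr (7.47% and 3.52%), and none was higher and Khsrp was lower at 24 hr (14.7% and 15.7%). With so few members these counts are not read against the background further.

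The values of all 27 member ratios had the same sign in the R1 and R2 columns taken alone. The median log2 ratio of the 6 members past the floor was 0.50, -0.27 and 0.16 at 1.5, 6 and 24 hr, beside 0.43, -0.74 and 0.09 over all 6251 genes. At 6 hr 5 of the 6 lay above the median gene, as did 5 at 1.5 hr and 4 at 24 hr. Khsrp was the one below it at both earlier times, and Khsrp and Zfp36l2 were below it at 24 hr.

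**Figure D3:**
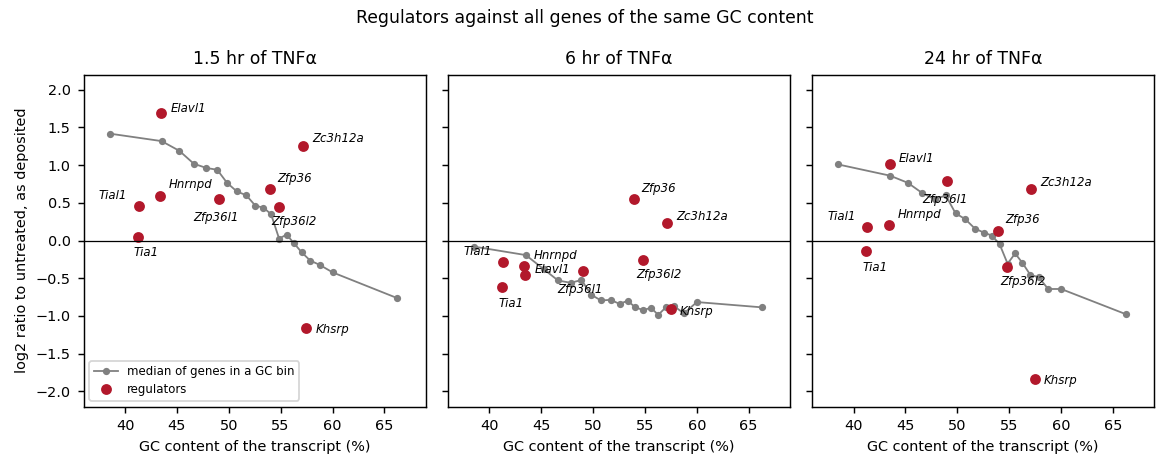
Log2 ratio to untreated MEFs as deposited (vertical axis) against the GC content of the transcript in percent (horizontal axis), with the 9 regulators as red points and the medians of 20 GC bins of genes past the floor as a grey line. The line falls from 1.42 to -0.76 at 1.5 hr and from 1.01 to -0.98 at 24 hr; Elavl1 lies near it, Zc3h12a above it, and Khsrp, Tia1, Tial1 and Hnrnpd below it at 1.5 and 24 hr.

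Shares and ratios of levels inside a library do not change with its scaling, though they still carry any dependence on GC content. Zfp36 made up 22.7%, 25.02%, 35.1% and 20.2% of the summed level of Zfp36, Zfp36l1 and Zfp36l2 at 0, 1.5, 6 and 24 hr. The share of Zfp36l1 was 40.5%, 40.6%, 32.4% and 56.4%, and that of Zfp36l2 was 36.8%, 34.4%, 32.5% and 23.4%. The 3 genes were thus at near equal shares at 6 hr, and Zfp36l1 exceeded the others together at 24 hr, when its level was 2.41 times that of Zfp36l2, against 1.099 times in untreated MEFs. In R1 and R2 the Zfp36 share at 6 hr was 35.3% and 34.9%. The summed level of the 3 was 1069, 1560, 1009 and 1319.

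The balance of the stabilizing Elavl1 to Khsrp, which is linked to decay, was 0.0386, 0.277, 0.0531 and 0.277 in the libraries of 0, 1.5, 6 and 24 hr. The values at 1.5 and 24 hr were close to each other and several times those at 0 and 6 hr, and the R1 and R2 columns gave 0.0372 and 0.0402 in untreated MEFs and 0.273 and 0.280 at 1.5 hr. The transcripts differ by 43.5% against 57.5% GC, and over all genes GC-poor transcripts had higher ratios to untreated than GC-rich ones at 1.5 and 24 hr. As deposited the ratio was 7.16-fold higher than untreated at both 1.5 and 24 hr, and with each gene taken relative to its GC bin it was 2.39-fold and 2.82-fold higher. At 6 hr it was 1.37-fold as deposited and 0.858-fold relative to the GC bins. Against Hnrnpd, whose GC content of 43.4% is close to its own, Elavl1 had ratios of 0.926, 1.97, 0.857 and 1.62, which were again higher at 1.5 and 24 hr. Elavl1 over Zfp36 was 0.220, 0.441, 0.110 and 0.405. Zc3h12a over Zfp36 was 0.301, 0.447, 0.242 and 0.439. Tia1 over Tial1, both of low GC content, was 0.623, 0.470, 0.496 and 0.501.

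**Figure D4:**
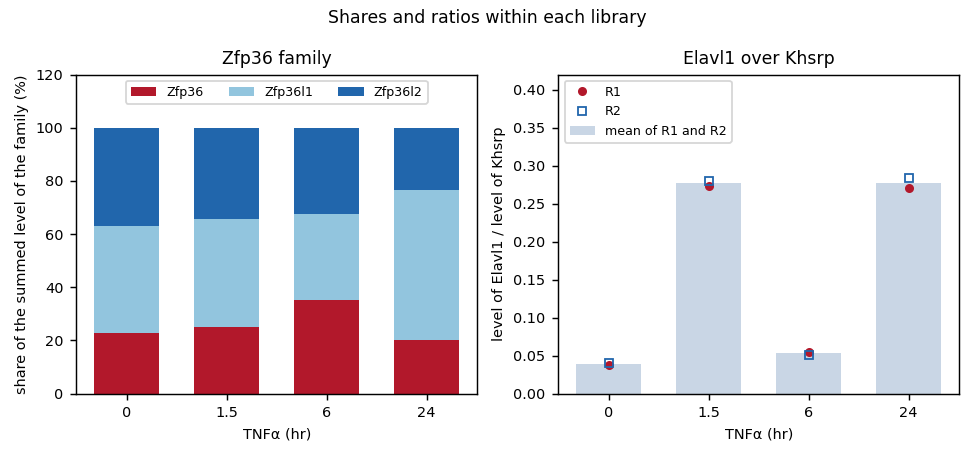
Left, share of Zfp36, Zfp36l1 and Zfp36l2 in their summed level (percent) in the untreated library and after 1.5, 6 and 24 hr of TNFα; right, level of Elavl1 divided by that of Khsrp, as bars for the mean of R1 and R2 and points for each column. The share of Zfp36 is highest at 6 hr at 35.1%, that of Zfp36l1 at 24 hr at 56.4%, and the ratio of Elavl1 to Khsrp is 0.277 at 1.5 and 24 hr.

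Ordered by level per length, untreated MEFs had Khsrp first at 1385, followed by Zfp36l1, Zfp36l2, Zfp36, Tial1, Tia1, Zc3h12a, Hnrnpd and Elavl1. The counting intervals of the neighbours Zfp36l1 and Zfp36l2 overlapped, as did those of Tia1, Zc3h12a and Hnrnpd and those of Hnrnpd and Elavl1. At 1.5 hr Zfp36l1 (633) and Khsrp (622) were first with overlapping intervals, Zfp36l2 and Zfp36 followed, and Zc3h12a (175), Elavl1 (172) and Tial1 (162) overlapped, as did Hnrnpd and Tia1. At 6 hr Khsrp (735) was again alone at the top, and Zfp36 (354), Zfp36l2 (328) and Zfp36l1 (327) overlapped, as did Tial1 with Zc3h12a and the lowest 3, Tia1, Hnrnpd and Elavl1. At 24 hr Zfp36l1 (744) was first without overlap, ahead of Khsrp (389), Zfp36l2 (309) and Zfp36 (266), of which the last pair overlapped. The 3 members of the Zfp36 family and Khsrp held the first 4 places in every library.

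The starts of all 9 genes lay inside an H3K4me3 peak of untreated MEFs. By the wider measure of a start within 1000 bp of a peak, 90.1% of genes past the floor and 52.1% of all 19904 annotated genes had one. The share with a start inside a peak was not counted over all genes. The Zfp36 peak (chr7:29159569-29168823) was the longest of the 9 at 9255 bp, reaching 4549 bp upstream and 4705 bp downstream of the start and so covering the whole gene, and it was longer than 98.9% of the 11157 peaks. The Zfp36l1 peak had the most tags, 3786 in 8217 bp, more than 99.3% of peaks. Zfp36l2 had 2674 tags in 4838 bp, and Zc3h12a had 1253 tags in 6852 bp, of which 5909 bp lay downstream of the start. The median peak of the series had 1049 tags in 3187 bp, so all 9 peaks were longer than the median and had more tags.

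Fold enrichment over the local background ordered the genes differently. It was 80.3 for Zfp36, 77.4 for Tia1 and 77.2 for Zc3h12a, 55.3 for Zfp36l1, 50.1 for Zfp36l2, 35.0 for Tial1, and from 27.7 to 29.95 for Hnrnpd, Khsrp and Elavl1, whereas the median peak had 45.45. Khsrp, with the highest RNA level in the same untreated cells, thus had one of the 3 lowest enrichments. The Hnrnpd peak also covered the start of 4930524J08Rik, and that of Elavl1 the start of Ccl25, so these peaks cannot be given to 1 gene alone. The false discovery rate of each of the 9 peaks was listed as 0.03%. There was 1 ChIP library and none after TNFα, so these values describe untreated cells without a replicate.

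**Figure D5:**
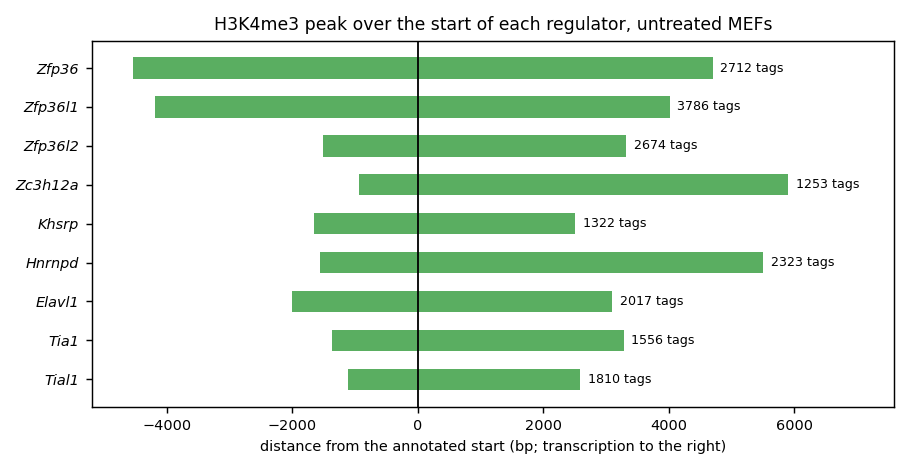
Extent of the H3K4me3 peak over the start of each regulator in untreated MEFs, in bp from the annotated start with transcription to the right, and the number of tags in each peak. The peaks of Zfp36 (9255 bp, 2712 tags) and Zfp36l1 (8217 bp, 3786 tags) reach at least 4020 bp to both sides, and that of Zc3h12a lies mostly downstream.

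The consensus κB motif of NF-κB, searched on both strands, was found in none of the 9 promoters from 250 bases before to 50 after the start, where 4.95% of all genes had it. From 1000 bases before to 200 after, it was again in 0 of 9, against 15.6% of the same 18542 genes. This says only that these letters are not in these windows.

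The regulators act through a shared decay machinery, described here by lists of genes of known function and by counts past 2-fold as deposited. Over all 6251 genes past the floor the shares to set beside these counts are 29.8% higher and 8.51% lower at 1.5 hr, 1.87% and 31.4% at 6 hr, and 17% and 13.4% at 24 hr. A gene under the floor in untreated MEFs passed it only through treated libraries. Among genes of these lists counted as higher at 1.5 hr, this held for Rqcd1, Wdr61, Exosc9, Ppp2cb and Pum2. Their untreated levels were 93.6, 76.4, 72.3, 69.6 and 61.1. The others counted as higher at that time were above the floor in untreated MEFs. Of 8 genes of deadenylation past the floor, the step that the Zfp36 family triggers, 3 were at least 2-fold higher at 1.5 hr and 2 at 24 hr, and 2 were lower at 6 hr, which is near the shares over all genes. Btg2, which stimulates deadenylation, had levels of 181, 613, 296 and 385, and its log2 ratios of 1.76, 0.71 and 1.09 were above 0 at every time. Cnot1, the scaffold of the deadenylase complex, had 124, 319, 91.0 and 195, and its subunit Rqcd1 had 93.6, 261, 80.3 and 203. Both were at least 2-fold higher at 1.5 hr and below untreated at 6 hr as deposited. Against the median gene Cnot1 was at 0.94 at 1.5 hr, under 2-fold, and both were above 0 at 6 hr, Cnot1 at 0.29 and Rqcd1 at 0.52, while Btg2 was at 1.33, 1.45 and 0.997.

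Of 15 genes of decapping and 5′ to 3′ decay, 7 passed the floor, and none of these was 2-fold higher at any time. At 6 hr 4 of the 7 were lower, where 31.4% of all genes were. Among them were Lsm2 (log2 -1.04), Lsm4 (-1.48) and Lsm7 (-1.57) of the Lsm ring that promotes decapping. Of the genes under the floor, Lsm5 (log2 3.49), Dcp2 (1.65), Lsm1 (1.38) and Xrn1 (1.18) were at least 2-fold higher at 1.5 hr. Dcp1a, Dcp1b, Edc3 and Lsm6 were at least 2-fold lower at 6 hr, where Lsm5 was higher (1.07). At 24 hr Lsm5 (2.89) and Lsm1 (1.03) were higher. Shares over all genes without the floor were not counted. Relative to the median gene none of the 7 passed 2-fold at any time. The exosome degrades RNA from the 3′ end. Past the floor were 11 genes listed for it and its cofactors, with Wdr61 among the cofactors. Of these, 4 were higher and 1 lower at 1.5 hr, where 29.8% and 8.51% of all genes were. At 24 hr 1 was higher and 1 lower, against 17% and 13.4%. The lower one was Exosc4, with levels of 690, 323, 454 and 234, and those with the largest ratios upward were Wdr61 (76.4, 285, 73.2 and 203) and Exosc8 (113, 288, 90.1 and 215). Wdr61, under the floor in untreated MEFs and at 6 hr, passed it only through the 1.5 and 24 hr libraries. Exosc8 was at 0.92 at 1.5 hr against the median gene, under 2-fold, and Exosc4, Wdr61 and Exosc8, all below untreated at 6 hr as deposited, were then above 0 at 0.13, 0.67 and 0.41.

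Of 17 other RNA-binding regulators of mRNA stability, 8 were at least 2-fold higher at 1.5 hr (29.8% of all genes) and 6 at 24 hr (17%), and none was lower at any time. Ybx1, which binds and packages mRNA, had levels of 769, 4739, 999 and 3102, the largest ratio at 1.5 hr (log2 2.62) among genes of the decay lists past the floor. Against the median gene it was at 2.19, 1.11 and 1.92. Pcbp1 (305, 1204, 340 and 765) and Pcbp2 (459, 1444, 423 and 1190) bind C-rich sequences. Pcbp1 has 57.6% GC and a log2 ratio of 1.98 at 1.5 hr, and the part of GC content in this ratio was not tested. Genes such as Ybx1 have processed pseudogenes, and how reads shared with near-identical copies were counted is not given in the sources used here.

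Of 14 genes that act on Zfp36 protein through p38, MK2, phosphatase 2A and 14-3-3, 9 were at least 2-fold higher at 1.5 hr (29.8% of all genes) and 8 at 24 hr (17%), and 3 were lower at 6 hr (31.4%). Ppp2ca and Ppp2cb, catalytic subunits of the phosphatase, had 391, 1505, 391 and 1124 and 69.6, 270, 85.5 and 201. The 14-3-3 gene Ywhah had 371, 1356, 370 and 1149, and the log2 ratios of all of these at 6 hr were at most 0.30 in size as deposited and from 0.73 to 1.03 against the median gene. Of 8 stress granule genes, 4 were higher at 1.5 hr (29.8% of all genes) and 3 at 24 hr (17%). Pabpc1, the poly(A)-binding protein, had levels of 892, 3554, 1168 and 4162 and was the highest at 24 hr (log2 2.22), Caprin1 had 247, 760, 192 and 501, and G3bp2 had 120, 262, 108 and 232. The latter pair were below untreated at 6 hr as deposited and above 0, at 0.37 and 0.58, against the median gene, where G3bp2 at 1.5 hr (0.70) and Caprin1 at 24 hr (0.93) were under 2-fold.

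Over the 65 decay genes of all these lists past the floor, 28 were higher (29.8% of all genes) and 1 lower (8.51%) at 1.5 hr, 10 were lower at 6 hr (31.4%), and 20 were higher (17%) and 1 lower (13.4%) at 24 hr. Taken against the median gene these counts became 17 higher and 3 lower at 1.5 hr, where 16.3% and 17.6% of all genes were. At 6 hr 4 were higher (7.47%), and at 24 hr 14 were higher and 1 lower (14.7% and 15.7%). Centred within GC bins they were 7 and 2, 5 and 0, and 8 and 1, and the shares over all genes were not counted. The 65 genes had median log2 ratios of 0.89, -0.48 and 0.61, beside 0.43, -0.74 and 0.09 over all genes. The median GC content of the 65 was 50.2%, against 53.0% over genes past the floor.

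The mRNAs on which the regulators are known to act were themselves measured. Of 28 genes listed for AU-rich or stem-loop 3′UTRs, 16 passed the floor. Of these, 11, 5 and 9 were at least 2-fold higher at 1.5, 6 and 24 hr, where 29.8%, 1.87% and 17% of all genes were, and none was lower at any time, against 8.51%, 31.4% and 13.4%. A gene low in untreated MEFs passed the floor only through the treated libraries. Among those counted as higher at 1.5 hr, this held for Cxcl1, Cxcl2, Lif and Ptgs2, with untreated levels of 65.5, 4.48, 35.3 and 65.4. Cxcl1, Cxcl2 and Lif were also higher at 6 hr, and all of them with Ptgs2 at 24 hr, so the floor itself favoured these counts. Without the floor, 19, 9 and 16 of the 28 were higher and 3, 4 and 2 lower. The shares over all genes were then not counted. Levels near 0 entered on both sides, such as Csf2, at 0 in untreated MEFs, and Il10, at 0 in every treated library. The chemokine genes Ccl2 (187, 18120, 4967 and 13491), Ccl7 (271, 7927, 2678 and 5451) and Cxcl2 (4.48, 190, 122 and 99.0) had the largest ratios among those past the floor, which Cxcl2 passed only through the treated libraries, and each was at its highest at 1.5 hr and above untreated in all 3 treated libraries. Their log2 ratios at 6 hr, 4.73, 3.30 and 4.77, lay far outside the range of the 9 regulators. The list was made from known targets, many of which are also NF-κB targets, and levels do not separate synthesis from decay.

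Genes were also split by the nonamer alone, without regard to what is known of them. Among genes past the floor, 324 had the nonamer in the 3′UTR and 5597 did not. At 6 hr 4.32% of the first group and 1.66% of the second were at least 2-fold higher, and 20.7% and 31.8% were at least 2-fold lower. At 1.5 hr 32.1% and 29.7% were higher and at 24 hr 19.8% and 16.7%. The median log2 ratios were -0.63 and -0.74 at 6 hr. The groups had median GC contents of 50.02% and 53.1%, and the part of GC content in these shares was not tested.

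The genes whose 3 log2 ratios lay nearest to those of Zfp36, of 6250 compared by Euclidean distance over the 3 times, were Rsl24d1 (distance 0.13), Mfhas1 (0.21) and Iqgap1 (0.22). For Zc3h12a the nearest pair were Ptges3 (0.14) and Tbce (0.17). Likeness over 3 ratios that share 1 untreated library is a description of these libraries.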

How the data were processed

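Poly(A) RNA of MEFs was sequenced in 4 directional libraries. The authors mapped reads to mm9 with TopHat and deposited RPKM values per RefSeq transcript from their own script, with a pair of columns per library and a scale that is not stated. Columns were tied to times through the study's list of sequencing depths. One protocol field of the 24 hr sample describes ChIP, but its other labels are those of an RNA library, and it was used as one. For H3K4me3 the authors mapped reads with Bowtie and deposited a MACS peak list with tag counts, a score made from the p-value, a fold enrichment (a ratio to local background), a false discovery rate in percent and a column of mean tag signal, the last of which was not used, nor was the score. The tools are named in the submitters' processing notes.

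The 9 genes and the gene lists were chosen with earlier results of these data known. For each gene the entry with the highest mean of the 8 columns was used, and R1 and R2 were averaged. Genes with an average over 4 libraries above 100 deposited units were compared with untreated MEFs, and at least 2-fold higher or lower, the fold of the study, was counted over all 6251 such genes. No pseudocount was added and no test was made. Named genes were the 9 regulators, in each other list up to 3 genes with the largest log2 ratio among those past the floor and above 0 in all columns, and the 3 nearest in pattern to Zfp36 and to Zc3h12a, of which 1 is not reported here.

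Low values came in steps of 1 read divided by the transcript length. Between 52.4% and 57.2% of low values were whole reads within 0.05, so reads were estimated only approximately, at the shortest full annotated transcript of a gene, and the 95% intervals from them are approximate. Positions, GC content (known for 95.3% of genes past the floor), 3′UTRs and sequences came from the mm9 genome (NCBIM37) with the GENCODE annotation. The 3′UTR was that of 1 coding transcript per gene. Alternatives were scaling to the sum, to a median of ratios or to a trimmed mean (leaving out the outer 30% of ratios and 5% of levels at either end), single columns, 1.5-fold and 3-fold, a pseudocount of 100, no floor or one of 1000, summed entries, and centring in 20 GC bins, the last added after seeing the data. The steps were tested on simulated data. Python 3.11.15, numpy 2.4.6, pandas 2.3.3 and matplotlib 3.10.9 were used.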

Additional observations from a re-analysis of the deposited data

Results flagged for a closer look

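For 6 of the 9 regulators, the log2 ratios to untreated MEFs as deposited had both signs over the 3 times, and for 3 of them, Zfp36l1, Zfp36l2 and Elavl1, the counting intervals on both sides left out 0. Zfp36l1 was at 0.55 at 1.5 hr, -0.40 at 6 hr and 0.78 at 24 hr. Zfp36l2 was at 0.45 at 1.5 hr, -0.26 at 6 hr and -0.35 at 24 hr. Elavl1 was at 1.68 at 1.5 hr, -0.45 at 6 hr and 1.01 at 24 hr. In each case both columns of 1 library lay on one side of 0 and both columns of the other on the opposite side. With 1 library per time these differences between times were not tested, and the comparisons share the untreated library. The median gene was itself at 0.43, -0.74 and 0.09. Relative to it, Zfp36l1 (0.33) and Elavl1 (0.28) were above 0 at 6 hr as at the other times. Zfp36l2 then had opposite signs at 6 hr (0.47) and 24 hr (-0.45), although as deposited it was below 0 at both.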

How the results depend on the processing

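Of the 27 log2 ratios of the regulators, none that had passed 2-fold changed sign under another setting. Scaling to the sum moved 15 and turned the sign of 7, the median of ratios and the trimmed mean each moved 17 and turned 7, a pseudocount of 100 moved 8 and turned 0, and centring within GC bins, chosen after seeing the data, moved 20 and turned 8. Moves are values outside the 95% counting interval of the ratio as deposited. Each column alone and the sum of all entries of a gene moved none of them, and no count beyond 1.5 times.

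The counts of genes past 2-fold moved more. Shares over all genes at other settings were counted only relative to the median gene, and are given above. Scaled to the sum, 2 regulators, 4 decay genes and 8 AU-rich mRNA genes were higher at 6 hr, and 0 decay genes were lower. The median of ratios and the trimmed mean both gave 0 regulators higher at 1.5 hr and 1 at 6 hr, 17 decay genes higher and 3 lower at 1.5 hr, 4 higher and 0 lower at 6 hr, and 8 AU-rich mRNA genes higher at 6 hr. At 1.5-fold, 2 regulators were higher at 1.5 hr and 2 at 24 hr, and 1 was lower at 6 hr. Of decay genes, 44, 1 and 34 were then higher and 2, 27 and 4 lower at 1.5, 6 and 24 hr, and of AU-rich mRNA genes 2 were lower at 6 hr and 1 at 24 hr. At 3-fold, 0 regulators were higher and 0 lower at 1.5 hr, 13 decay genes were higher and 0 lower at 1.5 hr, 0 were lower at 6 hr, and 3 were higher and 0 lower at 24 hr. With the pseudocount, 0 regulators were higher at 1.5 hr, 18 decay genes were higher and 0 lower at 1.5 hr, 3 were lower at 6 hr and 9 higher at 24 hr, and 5 AU-rich mRNA genes were higher at 24 hr.

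Without the floor, 2 regulators were higher at 1.5 hr and 1 at 24 hr. Of 101 decay genes, 42, 2 and 26 were then higher and 3, 20 and 5 lower at 1.5, 6 and 24 hr. Of 28 AU-rich mRNA genes, 19, 9 and 16 were higher and 3, 4 and 2 lower. Shares over all genes were not counted without the floor, so these counts cannot be set beside a background. A floor of 1000 left no regulator, so it gave no value for them. It left 4 decay genes higher and 0 lower at 1.5 hr, 2 lower at 6 hr, and 4 higher and 0 lower at 24 hr, and 2 AU-rich mRNA genes higher at each time, because fewer genes pass it. Centred within GC bins, 0 regulators were lower at 1.5 hr, 2 were higher at 6 hr and 1 at 24 hr. Decay genes were then 7 higher and 2 lower at 1.5 hr, 5 higher and 0 lower at 6 hr and 8 higher at 24 hr. For the other settings the cause of these moves was not tested.

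The number of regulators with a start in or near a peak was 9 inside a peak or within 5000 bp, and 6 with at least 30-fold enrichment. An AU-rich motif was found in 9 with the pentamer and 4 with the nonamer. No paired analysis was possible because there was 1 RNA library per time. Read numbers could only be estimated, so counting intervals are approximate, and they say nothing of the spread between cultures.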
